A study of Mus musculus with 2 samples.

Results

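The genes described here encode proteins of the secondary and tertiary granules of neutrophils, as measured in mouse erythroblasts, red cell precursors that still hold a nucleus. The 10 genes were Ltf, Camp, Ngp, Lcn2, Cd177, Mmp8, Mmp9, Chil3, Fcnb and Retnlg, taken by symbol from 43346 Ensembl genes in each table, and all 10 were found in both tables. They were chosen by their role together with their TPM and library ratios, which were already known, so both are given as a description without a test. The study holds 1 group of 2 libraries, called replicates 1 and 2. Both were total RNA depleted of ribosomal RNA from erythroblasts of C57BL/6J males at an age of 5 to 6 weeks, made from 100 ng of RNA. Replicate 1 held 37312624 gene counts and replicate 2 held 22464724. The labels cite a protocol for isolation from bone marrow. The labels give no treatment and no altered gene, and they place both biosamples under a single donor record, so the spread between the replicates may be partly technical.

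Neutrophil granules are made in sequence as the precursor cell matures in bone marrow. Primary granules, with myeloperoxidase and elastase, form first, secondary granules with lactoferrin next, and tertiary granules with gelatinase last. In mice the transcription factor C/EBP epsilon, encoded by Cebpe, is needed for the expression of many secondary granule genes. Erythroblasts and granulocytes mature side by side in bone marrow.

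The 10 genes lie on 5 mouse chromosomes, and Camp, Ngp and Ltf lie within 1195389 bases of chromosome 9. Between Camp and Ngp lie 8 other protein-coding genes, and between Ngp and Ltf lie 20. Sequence upstream of the 5 genes with the highest mean level is given to show what precedes their starts, 5′ to 3′ on the strand of the gene. It comes from RefSeq on GRCm38.p6 and ends before the GENCODE start of the leading transcript or the RefSeq start, whichever is further upstream. Capitals mark matches on either strand to TTNNGNAA, a short form of the sequence that C/EBP factors bind. The stretches are chr9:110419558-110419746 on the plus strand for Ngp, chr9:109849618-109849706 on the minus strand for Camp, chr3:106167565-106167814 on the minus strand for Chil3, chr9:111019042-111019291 on the plus strand for Ltf and chr2:32387798-32387989 on the minus strand for Lcn2.
Ngp: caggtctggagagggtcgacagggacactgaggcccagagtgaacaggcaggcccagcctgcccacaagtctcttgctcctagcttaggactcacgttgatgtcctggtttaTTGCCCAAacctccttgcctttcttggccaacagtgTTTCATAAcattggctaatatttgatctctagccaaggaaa
Camp: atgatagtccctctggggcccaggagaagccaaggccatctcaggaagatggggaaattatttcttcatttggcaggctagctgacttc
Chil3: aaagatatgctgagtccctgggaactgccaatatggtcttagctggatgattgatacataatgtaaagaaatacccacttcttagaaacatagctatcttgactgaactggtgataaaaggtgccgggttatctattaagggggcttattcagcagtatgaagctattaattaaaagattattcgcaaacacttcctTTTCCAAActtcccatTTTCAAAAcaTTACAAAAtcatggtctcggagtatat
Ltf: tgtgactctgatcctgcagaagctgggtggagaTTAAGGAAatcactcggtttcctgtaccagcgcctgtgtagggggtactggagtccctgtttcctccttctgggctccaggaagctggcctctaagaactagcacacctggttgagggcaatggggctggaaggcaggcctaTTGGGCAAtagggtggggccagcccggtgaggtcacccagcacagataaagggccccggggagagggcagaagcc
Lcn2: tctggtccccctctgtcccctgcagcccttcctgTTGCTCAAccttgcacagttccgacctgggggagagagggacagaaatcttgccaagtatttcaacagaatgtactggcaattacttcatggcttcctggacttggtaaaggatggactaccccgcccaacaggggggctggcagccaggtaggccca

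A RefSeq window of 250 bases before the start was listed for 9 of the 10 genes, not for Mmp9, and 8 of these 9 windows held TTNNGNAA on either strand. Among all 32817 listed windows of that length, 36.8% held it. Camp was the gene of the 9 without a match. Its GENCODE start lies 161 bases upstream of the RefSeq start, so only 89 bases of its window precede both starts. In Ltf the match TTGGGCAA ran from 75 to 68 bases before the start and overlapped the reverse of CCAAT, at 76 to 72 bases. In Ngp the match TTGCCCAA ran from 138 to 131 bases before the RefSeq start and TTTCATAA from 102 to 95, while another match, TTGGGCAA at 11 to 4 bases, lay beyond the printed stretch. CCAAT itself, on either strand, was in 5 of the 9 windows and in 33.8% of all. AGGAAG, a form bound by ETS factors, was in 6 of the 9 and in 29.5% of all. TGATAA, a form bound by GATA factors, was in 1 of the 9, that of Chil3, and in 7.95% of all. TATAAA was in 1 of the 9, that of Cd177, and in 12.4% of all. These are matches of letters, and the libraries hold no measurement of binding.

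All 10 genes were detected in both libraries, most of them among the higher protein-coding genes. Levels are given as coding-scaled TPM, deposited TPM rescaled within each library so that nuclear protein-coding genes sum to 1000000. Each gene had 1 or more deposited TPM in each library, here called detected, and 20.3% of 21461 nuclear protein-coding genes did. These genes held 11.3% of deposited TPM in replicate 1 and 6.89% in replicate 2. The limit is thus stricter than 1 coding-scaled TPM in both libraries, which 43.9% of them reached. By mean level the 10 genes stood between percentile 81.4, Mmp9, and percentile 99.8, Ngp, among 12895 protein-coding genes above 0, with a median percentile of 96.9. Their sum was 0.636% of nuclear protein-coding TPM in replicate 1 and 0.531% in replicate 2, or 0.584% ± 0.0747 (SD, n = 2). By counts they held 104242 of 21544250 protein-coding counts in replicate 1, a share of 0.484% (exact Clopper-Pearson 95% interval 0.481 to 0.487). In replicate 2 they held 45516 of 11767396, a share of 0.387% (0.383 to 0.390). The intervals cover counting error only. In bulk RNA, a small number of cells with much of a transcript and many cells with little of it cannot be told apart.

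**Figure D1:**
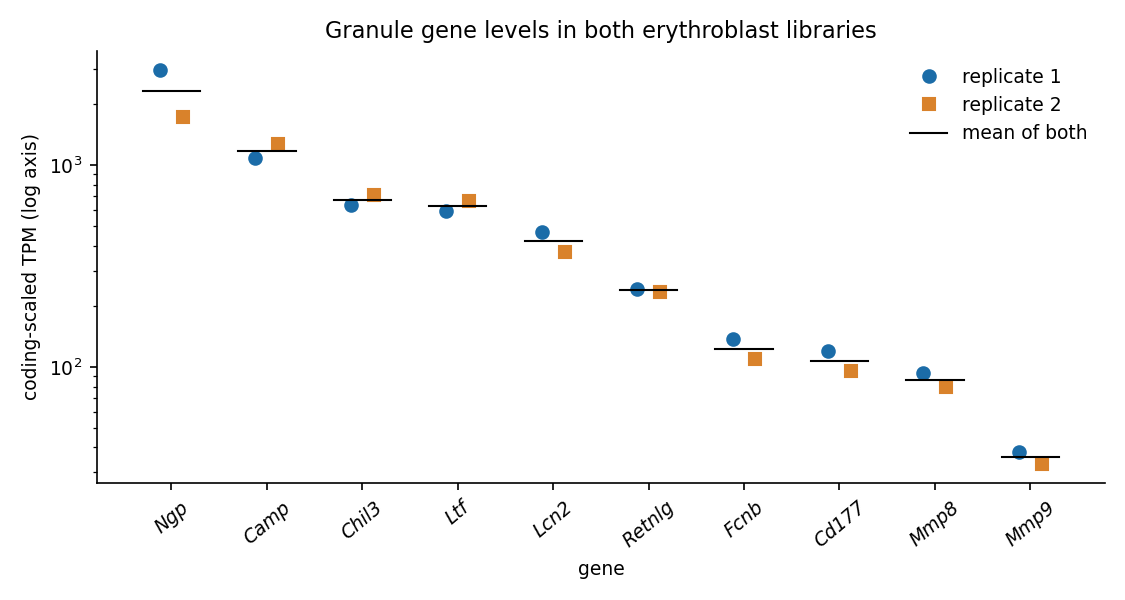
Coding-scaled TPM of each gene (log axis) in replicate 1 (circles) and replicate 2 (squares), with the mean as a line. The order of the 10 genes was the same in both libraries, from Ngp at 2951 in replicate 1 and 1728 in replicate 2 down to Mmp9 at 38.0 and 33.2.

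The cathelicidin-related genes were highest. Ngp encodes neutrophilic granule protein, a relative of the cathelicidins, and lies on chromosome 9 at 110419747 to 110423012 (GRCm38, plus strand). It had 2951 coding-scaled TPM in replicate 1 and 1728 in replicate 2, a mean of 2339 ± 865 (SD, n = 2), from 43477 and 13484 counts. Its mean level ranked 25 among the protein-coding genes. Camp encodes the precursor of the antimicrobial peptide CRAMP and lies on chromosome 9 at 109847379 to 109849617 (minus strand). It had 1081 coding-scaled TPM in replicate 1 and 1279 in replicate 2, a mean of 1180.1 ± 140.0, from 6724 and 4433 counts. Ngp was thus higher in replicate 1 and Camp higher in replicate 2 on this scale. The level of Ngp was 2.73 times that of Camp in replicate 1 and 1.35 times in replicate 2, a comparison within each library that its scaling does not touch.

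Both genes for proteins that withhold iron from microbes were abundant. Ltf encodes lactoferrin, which binds iron, and lies on chromosome 9 at 111019271 to 111042767 (plus strand). Its level was 596 coding-scaled TPM in replicate 1 and 664 in replicate 2, a mean of 629.6 ± 48.1 (SD, n = 2), from 23112 and 13323 counts. Lcn2 encodes lipocalin 2, which binds the iron carriers of bacteria, and lies on chromosome 2 at 32384633 to 32388252 (minus strand). Its level was 468 coding-scaled TPM in replicate 1 and 370.1 in replicate 2, a mean of 419 ± 69.3, from 5190 and 2180 counts. The values of Ltf and Lcn2 did not overlap between the genes. By coding-scaled TPM Ltf was higher in replicate 2 and Lcn2 higher in replicate 1, and the direction of Ltf turned round on counts scaled by library size only.

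The matrix metalloproteinase genes were the lowest of the 10. Mmp8 encodes neutrophil collagenase and lies on chromosome 9 at 7558456 to 7568485 (plus strand). It had 93.6 coding-scaled TPM in replicate 1 and 79.8 in replicate 2, a mean of 86.7 ± 9.76 (SD, n = 2), from 3219 and 1422 counts. Mmp9 encodes gelatinase B, the marker enzyme of tertiary granules, and lies on chromosome 2 at 164940780 to 164955850 (plus strand). It had 38.0 coding-scaled TPM in replicate 1 and 33.2 in replicate 2, a mean of 35.6 ± 3.41, from 1286 and 558 counts. Mmp8 stood above Mmp9 by a similar factor in each library, 2.46 in replicate 1 and 2.40 in replicate 2.

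The lectin-like, secreted and surface products spanned a wide range. Chil3 encodes Ym1, a chitinase-like protein, and lies on chromosome 3 at 106147554 to 106167564 (minus strand). It had 636 coding-scaled TPM in replicate 1 and 714 in replicate 2, a mean of 675 ± 54.9 (SD, n = 2), from 13055 and 6533 counts. Retnlg encodes a resistin-like protein and lies on chromosome 16 at 48872621 to 48874496 (plus strand). It had 244 and 236 coding-scaled TPM in replicates 1 and 2, a mean of 239.8 ± 5.26, from 1548 and 835 counts, the closest match between the libraries among the 10 genes. Fcnb encodes ficolin B, which recognises sugars on microbes, and lies on chromosome 2 at 28076378 to 28084885 (minus strand). It had 138 coding-scaled TPM in replicate 1 and 109 in replicate 2, a mean of 123 ± 19.9, from 2050 and 863 counts. Cd177, a surface protein of neutrophils that is also stored in granules in human cells, lies on chromosome 7 at 24743983 to 24760311 (minus strand). Its level was 119 coding-scaled TPM in replicate 1 and 95 in replicate 2, a mean of 107 ± 17.3, from 4581 and 1885 counts.

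The order of the 10 levels was Ngp, Camp, Chil3, Ltf, Lcn2, Retnlg, Fcnb, Cd177, Mmp8 and Mmp9 in each library. Of the 9 pairs of neighbours in this order, 7 had values that did not overlap. The ranges of Chil3 and Ltf overlapped, and so did those of Fcnb and Cd177. Within a library Fcnb was 1.15 times Cd177 in each of the replicates, and Chil3 was 1.07 times Ltf in replicate 1 and 1.08 times in replicate 2. With the leading transcript of each gene alone, Chil3 was 1.07 times Ltf in replicate 1 and 0.911 times in replicate 2, so the order of that pair depended on the transcripts counted. The highest gene stood 77.6 times above the lowest in replicate 1 and 52.0 times in replicate 2. The order by counts was another, since the genes differ in length: Camp, with a transcript of 599 bases, had 0.291 times the counts of Ltf, with 2742 bases, in replicate 1 but 1.82 times its level.

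Within the summed TPM of the 10 genes, the share of Ngp differed most between the libraries. Ngp held 46.4% of the summed TPM of the 10 genes in replicate 1 and 32.5% in replicate 2. Camp held 17.0% and 24.1%, Chil3 10% and 13.5%, and Ltf 9.36% and 12.5% in replicates 1 and 2. The shares of Lcn2 (7.36% and 6.97%) and Retnlg (3.83% and 4.45%) moved less. The shares of a library add up to the whole, so together those of the other genes rise where that of Ngp falls. As a factor, the level of Lcn2 (468 and 370 coding-scaled TPM) differed more between the libraries than those of Chil3 (636 and 714) and Ltf (596 and 664). Fcnb, Cd177, Mmp8 and Mmp9 each held between 0.598% and 2.16% in either library.

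**Figure D2:**
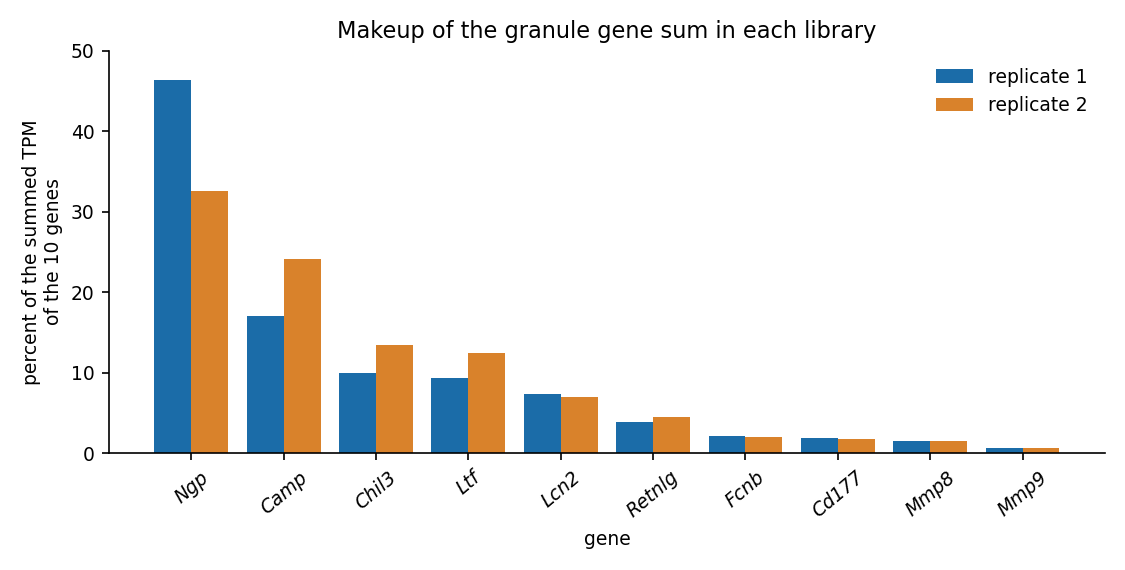
Percent of the summed TPM of the 10 genes held by each gene in replicate 1 (left bars) and replicate 2 (right bars). Ngp held 46.4% in replicate 1 and 32.5% in replicate 2, while Camp held 17.0% and 24.1%.

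The libraries were set against each other gene by gene, as the log2 ratio of replicate 1 over replicate 2 on counts scaled with TMM, a factor that evens out libraries of unlike makeup. With a single library on each side no p-value is given, and the exact 95% intervals cover counting error only. None of the 10 genes was at least 2-fold apart on this scale, against 8.44% of 7658 nuclear protein-coding genes whose mean count reached 100. Of these, 5.39% were at least 2-fold higher in replicate 1 and 3.04% in replicate 2. The shares among all 8203 genes of that depth were 10.4% for either direction, 5.58% for higher in replicate 1 and 4.84% for higher in replicate 2. The median of the 10 was 0.30 and that of the protein-coding genes 0.03. Ngp had the highest ratio, 0.80 (0.77 to 0.82), or 1.74-fold. It was followed by Cd177 at 0.39 (0.31 to 0.47), Lcn2 at 0.36 (0.29 to 0.43), Fcnb at 0.36 (0.24 to 0.47), Mmp9 at 0.31 (0.17 to 0.46) and Mmp8 at 0.29 (0.20 to 0.38). These 5 genes, of different roles, had intervals that overlapped each other. Ngp alone of the 10 had a ratio of at least 0.5, which 17.5% of the protein-coding genes had. Chil3 had a ratio of 0.11 (0.06 to 0.15) and Retnlg one of -0.003 (-0.12 to 0.12). Ltf was at -0.10 (-0.13 to -0.07) and Camp at -0.29 (-0.35 to -0.24).

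In all, 7 of the 10 genes had an interval above 0 and 2 an interval below 0. Of the 7658 protein-coding genes, 36.5% had an interval above 0 and 32.9% one below. Among all 8203 genes the shares were 36.0% above and 34.2% below. Since the choice of genes used these ratios, nothing is read from these numbers of genes. The scaling moved the centre: the median of the 10 genes was 0.46 by library size only and 0.21 by coding-scaled TPM, where the protein-coding median was 0.19 and -0.03. Ngp stayed above 0 under each of the 7 scalings of counts and coding-scaled TPM, between 0.77 and 0.96. Camp stayed below 0 under each of these 7, between -0.31 and -0.13. The scalings of counts shift the ratios of all 10 genes alike, so among these 7 only coding-scaled TPM could change their order. By coding-scaled TPM, too, Ngp was the highest of the 10 and Camp the lowest. By deposited TPM, of which protein-coding genes held 11.3% in replicate 1 and 6.89% in replicate 2, all 10 genes including Camp were higher in replicate 1, with a median log2 ratio of 0.92. On that scale 4 of the 10 (Ngp, Lcn2, Fcnb and Cd177) were at least 2-fold apart, against 29.6% of the protein-coding genes, whose median was 0.68. Ltf turned to 0.063 by library size only, and Chil3 to -0.17 by coding-scaled TPM. Retnlg, at -0.003 by TMM, lay above 0 by library size only and by coding-scaled TPM.

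**Figure D3:**
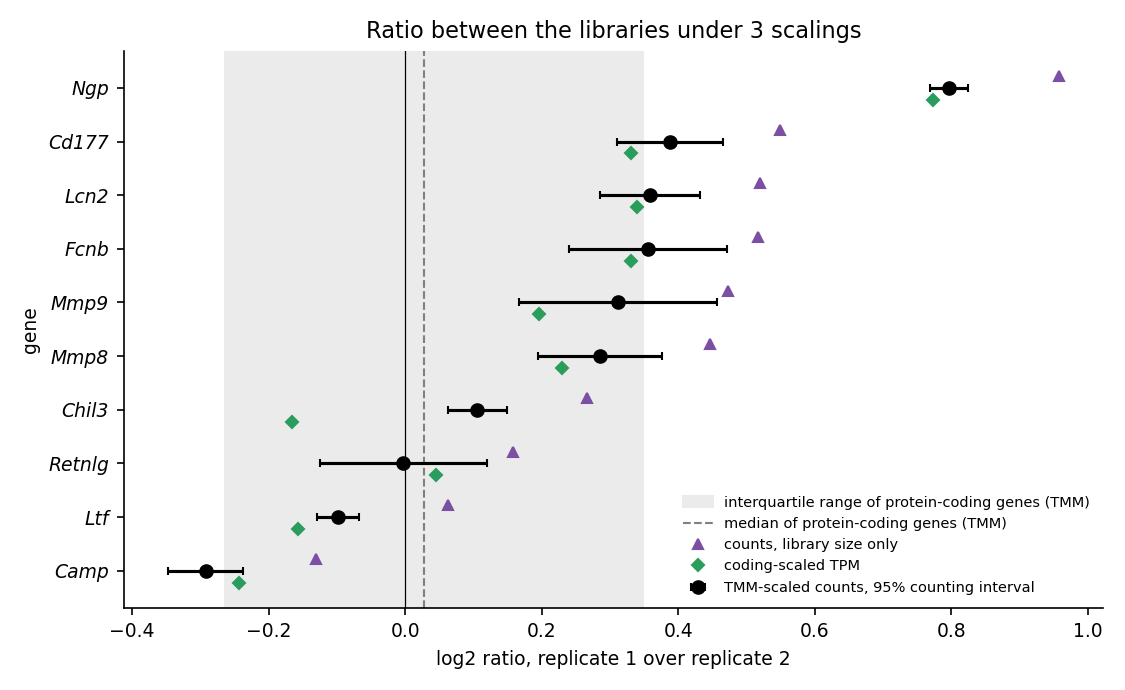
Log2 ratio of replicate 1 over replicate 2 for each gene, on TMM-scaled counts with 95% counting intervals (circles), on counts by library size only (triangles) and on coding-scaled TPM (diamonds). The dashed line is the TMM median of protein-coding genes, 0.03, and the grey band their interquartile range, from -0.26 to 0.35. Ngp lies farthest above the band, Cd177, Lcn2 and Fcnb lie at its upper edge, and Camp lies just below it.

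The transcript tables show which forms of each gene were measured. The annotation lists 22 transcripts for the 10 genes, and 6 genes (Ltf, Camp, Ngp, Cd177, Mmp8 and Retnlg) have a single transcript. Fcnb has 3, of which Fcnb-201, with 9 exons, held 100% in both libraries. Of Lcn2, Lcn2-201 with 6 exons held 98.2% in replicate 1 and 97.3% in replicate 2. The retained-intron transcript Lcn2-202 held 0.56% and 2.40% of Lcn2 in replicates 1 and 2.

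Mmp9 and Chil3 were less uniform. The full-length Mmp9-201, of 3175 bases and 13 exons, held 63.0% of Mmp9 in replicate 1 and 58.5% in replicate 2 (60.7% ± 3.19, SD, n = 2). The rest was given to Mmp9-204, a processed transcript of 1125 bases without a coding sequence, at 37.0% and 41.5%. By counts, Mmp9-201 held 84.5% and 81.4%, since it is the longer transcript. With Mmp9-201 alone the level of Mmp9 was 23.9 coding-scaled TPM in replicate 1 and 19.4 in replicate 2. Chil3-201, of 1539 bases and 11 exons, held 100% of Chil3 in replicate 1 and 84.7% in replicate 2. The other 15.3% in replicate 2 belonged to Chil3-203, a transcript of 174 bases with an effective length of 39.4 bases there, on which 33.4 of 6533 counts were placed. With Chil3-201 alone, a measure chosen after these shares were seen, Chil3 stood at 636 coding-scaled TPM in replicate 1 and 605 in replicate 2. The log2 ratio of Chil3 was then 0.07, against -0.17 with both transcripts and 0.11 by TMM-scaled counts. Per the labels the size range, which has no unit, was 200 to 764 in replicate 1 but 138 to 1000 in replicate 2, and its part in the transcript shares was not tested.

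Counts of the 10 genes were assigned with almost no ambiguity. The deposited posterior standard deviation of the count, which grows where reads fit several genes, was at most 0.05 counts for each of the 10 in both libraries. No other annotated gene overlaps any of them on either strand. Of 18 related genes, 11 had 0 counts in both libraries, where 0 allows up to 0.0804 CPM in replicate 1 and 0.134 CPM in replicate 2 (3 counts of each library). They included the resistin family members Retn, Retnla and Retnlb, next to Retnlg at 244 and 236 coding-scaled TPM, and the metalloproteinases Mmp3, Mmp10 and Mmp12. Chil4, the closest relative of Chil3, had 0 and 2 counts in replicates 1 and 2, against 13055 and 6533 for Chil3. Only 3 of the 18 were detected. They were Chil1 (60.3 and 30.5 coding-scaled TPM in replicates 1 and 2), Trf (53.3 and 57.3), which encodes the iron carrier transferrin, and the macrophage ficolin gene Fcna (29.1 and 25.4). Fcnb stood 4.72 and 4.31 times above Fcna in replicates 1 and 2.

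The 10 genes also stood above the genes beside them, by margins of very different size. The nearest protein-coding gene on each side gave 20 neighbours, and all 20 were below their granule gene in both libraries. The 10 genes were chosen with their levels known and had a median percentile of 96.9. Lower neighbours follow largely from that choice, and nothing is read from their number. Among 21461 nuclear protein-coding genes, 12895 were above 0 TPM in at least 1 library. Of the 20 neighbours, 6 had 0 counts in both libraries, and 1 exceeded 20 coding-scaled TPM on average. It was Ccrl2, an atypical chemerin receptor gene that lies 11718 bases from Ltf, at 78.6 in replicate 1 and 47.7 in replicate 2. The neighbours of Ngp, Ptpn23 and Klhl18, were at 0.819 and 2.53 coding-scaled TPM on average, with Klhl18 only 2913 bases away. Beside Camp, Nme6 was at 6.31 and the cell cycle phosphatase gene Cdc25a at 12.9. The margin was narrowest at Mmp9, which averaged 3.35 times the level of Zfp335, at 10.6.

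**Figure D4:**
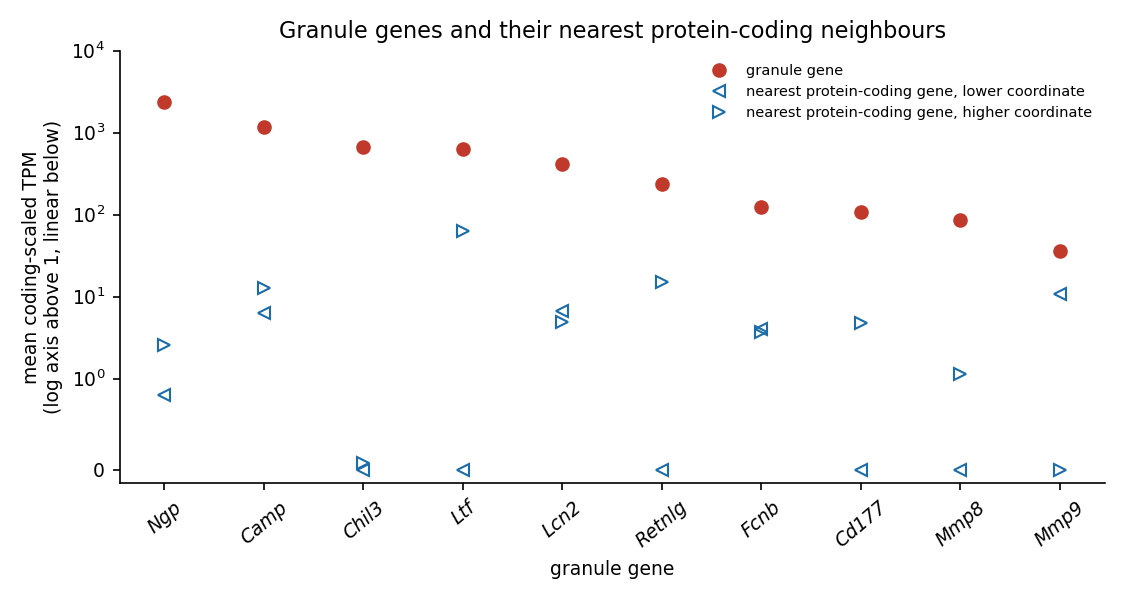
Mean coding-scaled TPM of each granule gene (filled circles) and of the nearest protein-coding gene on either side (open triangles), on an axis that is logarithmic above 1 and linear below. All 20 neighbours lie below their granule gene, which was chosen with its level known, and Ccrl2, beside Ltf, is the highest of them at 63.2.

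Primary granule genes, which neutrophil precursors express earlier, were present at a lower sum. Of 8 such genes 6 were detected, 7 reached 1 coding-scaled TPM in both libraries, and Bpi had 0 counts in both. The sum over the 10 secondary and tertiary granule genes was 6364 coding-scaled TPM in replicate 1 and 5308 in replicate 2. The sum over the 8 primary granule genes was 2145 in replicate 1 and 1468 in replicate 2. The quotient was 2.97 in replicate 1 and 3.62 in replicate 2. Mpo, the myeloperoxidase gene, stood at 1068 coding-scaled TPM in replicate 1 and 640.2 in replicate 2, and Elane, which encodes neutrophil elastase, at 465 and 288. Their log2 ratios of 0.87 (0.83 to 0.90) and 0.70 (0.62 to 0.78) were close to that of Ngp, at 0.80. Prtn3 (0.13, -0.01 to 0.26) and Ctsg (0.21, 0.13 to 0.30), which encode further serine proteases, had lower ratios. Prss57, another serine protease gene, had the highest ratio of the list at 1.12 (0.86 to 1.40) and was the only gene of the list at least 2-fold apart. As in the 10 genes, the ratios thus differed among the genes of this list.

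Late neutrophil genes were much lower. Of 14 genes for surface receptors and late products, 5 were detected, and 10 reached 1 coding-scaled TPM in both libraries. The median over the list was 18.4 coding-scaled TPM in replicate 1 and 9.57 in replicate 2. The medians of the 10 granule genes were 356 and 303. Cxcr2, the chemokine receptor of mature neutrophils, had 26.0 coding-scaled TPM in replicate 1 and 24.2 in replicate 2. Csf3r, the receptor for granulocyte colony-stimulating factor, stood at 34.0 and 19.7, and the surface marker Ly6g at 25.5 and 9.72. The stefin A genes Stfa1, Stfa2 and Stfa3 had between 0 and 34 counts in a library. Of 8 late genes whose mean count reached 100, all 8 had a log2 ratio interval above 0, against 36.5% of protein-coding genes, with a median of 0.66. Ly6g was at 1.41 (1.00 to 1.84). Of the 6 late genes with fewer counts, some went the other way: Il1b, which encodes a cytokine, had 44 counts in replicate 1 and 65 in replicate 2, a log2 ratio of -1.46 (-2.04 to -0.88). Stfa2l1 had 8 and 16 counts, and BC100530 had 0 and 33.

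Other granulocyte genes ranged from far above the 10 genes to near 0. S100a8, which encodes a calcium-binding protein of the neutrophil cytosol, stood at 8719 coding-scaled TPM in replicate 1 and 7420.3 in replicate 2, and its partner S100a9 at 4791 and 7292. The 10 granule genes together reached 47.1% of the S100a8 and S100a9 sum of TPM in replicate 1 and 36.1% in replicate 2. By counts, which grow with transcript length, they exceeded that sum 2.07 times in replicate 1 and 1.33 times in replicate 2. Cybb, the catalytic subunit of the NADPH oxidase, stood at 159 and 135, and Hp, which encodes haptoglobin, at 107 and 131. Of 20 genes in this list 13 were detected, and 19 reached 1 coding-scaled TPM in both libraries. Pglyrp1, which encodes a peptidoglycan-binding protein, had a log2 ratio of 1.10 (0.80 to 1.41) and Wfdc21 one of -0.65 (-0.83 to -0.47), so the list spread in both directions.

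**Figure D5:**
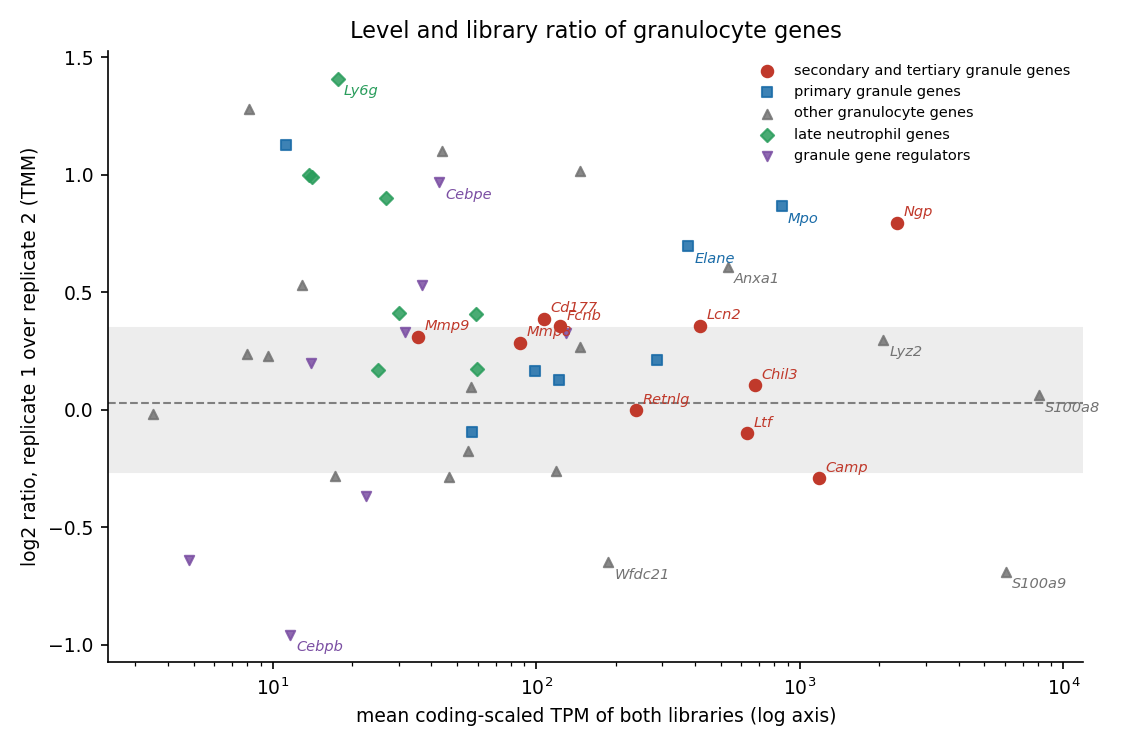
Log2 ratio of replicate 1 over replicate 2 on TMM-scaled counts against mean coding-scaled TPM (log axis) for the 10 granule genes and 4 other lists, for those whose mean count reached 100. The dashed line and grey band are the median and interquartile range of protein-coding genes. Ngp, Mpo and Elane lie at 0.70 to 0.87, and Camp and S100a9 below 0.

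Of the factors that control granule genes, Cebpe was present. It had 56.1 coding-scaled TPM in replicate 1 and 29.3 in replicate 2, and a log2 ratio of 0.97 (0.76 to 1.18). Its level was lower than that of 9 of the 10 granule genes by mean, 42.7 ± 18.9 (SD, n = 2), and overlapped that of Mmp9. Spi1, which encodes PU.1, stood at 50.8 and 22.6 in replicates 1 and 2, and Runx1, which erythroid precursors also express, at 126 and 133. Cebpa, which acts earlier, was low at 3.64 and 5.95, and its log2 ratio was -0.64 (-1.01 to -0.27). Cebpb (-0.96, -1.28 to -0.63) and Cebpd (-0.37, -0.63 to -0.10) were also higher in replicate 2. In all, 5 of 10 regulators were detected, and 9 of 10 reached 1 coding-scaled TPM in both libraries.

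Receptors, partners and inhibitors of the granule proteins were detected about as often as protein-coding genes at large. Of 14 such genes 3 were detected, against 20.3% of nuclear protein-coding genes. They were Cap1, a receptor for resistin in human cells, the formyl peptide receptor gene Fpr2, and Lrp1. At 1 coding-scaled TPM in both libraries the number was 6 of 14, against 43.9%. Timp1, an inhibitor of Mmp9, Lrp2, an uptake receptor for lipocalin 2, Masp1 and Itln1 had 0 counts in both libraries. Slc22a17, the other lipocalin 2 receptor gene, had 11 counts in replicate 1 and 0 in replicate 2. Timp2 had 8.62 coding-scaled TPM in replicate 1 and 11.6 in replicate 2, below Mmp8 and Mmp9 in both.

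Erythroblast markers made up a large part of the protein-coding TPM, though they were chosen with earlier results of these data known. All 10 erythroblast markers were detected and summed to 37.9% of nuclear protein-coding TPM in replicate 1 and 33.2% in replicate 2, and the granule genes reached 1.68% and 1.60% of that sum. Most of it came from globins: over the 7 markers that are not globins the sum was 17207 coding-scaled TPM in replicate 1 and 18774 in replicate 2, and the granule genes reached 37.0% and 28.3% of it. Markers of other blood cells were present beside the granule genes. Of 12 monocyte and macrophage markers 8 were detected, with a sum of 754 coding-scaled TPM in replicate 1 and 469 in replicate 2, and Cd14 had 121 and 0 counts. Of 8 eosinophil, basophil and mast cell markers 7 were detected, with sums of 890.4 and 848, led by Prg2 at 530.1 and 450.2. Of 6 B cell markers, 1 was detected, with sums of 47.6 and 43.7. Of 6 T and NK cell markers, 1 was detected, with sums of 26.2 and 19.3, and Cd3d and Trac had 0 counts. Of 6 megakaryocyte markers, 2 were detected, with sums of 121 and 144, and of 5 stem and progenitor markers 2, with sums of 94.3 and 83.4. The numbers at 1 coding-scaled TPM in both libraries were higher for most of these lists. They were 11 of 12 for monocytes and macrophages, 8 of 8 for eosinophils, basophils and mast cells, and 2 of 6 for B cells. For T and NK cells the number was 1 of 6, for megakaryocytes 4 of 6, and for stem and progenitor cells 4 of 5. By coding-scaled TPM the sum of the 10 granule genes was higher in replicate 1, and so were the sums of most other lists. The sums of the megakaryocyte markers and of the other granulocyte genes were higher in replicate 2. For the granule genes the higher sum rested on Ngp, at 2951 in replicate 1 and 1728 in replicate 2. That difference was wider than the one between the sums, 6364 and 5308, so without Ngp the sum was higher in replicate 2. Of the 10 genes, 7 were higher in replicate 1 on this scale and 3 in replicate 2. The part of other cell types in the ratios of the 10 genes was not tested, nor was the cell type that holds the granule gene transcripts.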

How the data were processed

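Total RNA of 2 erythroblast libraries was measured. Per the file headers, the deposited tables give expected counts, which are estimated and need not be whole, a posterior mean of each count with its standard deviation (a score with no fixed range), TPM, and the percent of the TPM of a gene held by each transcript. Assembly mm10 and GENCODE release M4 are named in the deposited records. The aligner and the quantification program, and whether counting used strand, were not given in the sources used here. The total was 37312624 counts in replicate 1 and 22464724 in replicate 2. Symbols and GRCm38 coordinates came from GENCODE M21, matched by identifier without version for 42462 of 43346 genes.

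Coding-scaled TPM was computed from the TPM of 21461 nuclear protein-coding genes. Expected counts were rounded and scaled with TMM in edgeR 4.0.16 (R 4.3.3) over 12757 genes averaging 10 or more counts. Ratios used genes averaging 100 or more. The scaling was tested on simulated data. DESeq2 1.42.0 size factors were an alternative. Python 3.11.15, pandas 2.3.3 and scipy 1.17.1 did the rest. The genes and lists were chosen with earlier results of these data known, and every gene named is a member, a member of a fixed list or a nearest neighbour.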

Additional observations from a re-analysis of the deposited data

How the results depend on the processing

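The levels depend on the denominator. The median level of the 10 genes was 329 coding-scaled TPM, 30.5 in deposited TPM and 516 when rescaled without the 4 adult globin genes. Their summed share was 0.584% of protein-coding TPM, 0.435% of protein-coding counts and 0.915% of TPM without the globins. Leaving out each replicate in turn gave medians of 303 to 356 coding-scaled TPM and summed shares of 0.531% to 0.636%. The median log2 ratio of 0.30 moved to 0.46 by library size only and to 0.92 by deposited TPM, an alternative chosen after its ratios were seen. By deposited TPM 4 genes were at least 2-fold apart, and Camp turned to 0.46 and Ltf to 0.55. Chil3 turned to -0.17 by coding-scaled TPM, and Ltf to 0.063 by library size only, a setting that raises every ratio by the same amount. The count of 0 genes at least 2-fold apart stayed at 0 under the 6 other scalings, and that of 10 detected genes stayed at 10 under both other limits. No paired analysis was possible because there is 1 group. With 1 group of 2 libraries, no test between conditions could be made.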
